A study of Homo sapiens with 8 samples.

Results

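Translation initiation factors are the proteins that bring a ribosome, the initiator tRNA and an mRNA together at a start codon. Their genes were followed in K562 cells, a human erythroleukaemia line, that carried an SF3B1 transgene. Every gene whose symbol in the files begins with EIF and a digit from 1 to 6 was taken, apart from a Y-linked one. This gave 45 genes, with 69 reference transcripts, out of 23620 genes. A further 11 initiation factor genes, among them EIF4A1, EIF4G1 and EIF6, never carry their symbol in the files and were named through the RefSeq accessions of their transcripts. Those 11 are kept apart and come last.

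The study asked how expression and splicing change when K562 cells express mutant or wild-type SF3B1, a core protein of the spliceosome that helps to recognise the branch point. There were 8 libraries in 4 groups of 2, and all cells grew in medium with 10% serum. The groups were K562 with an SF3B1-K700E transgene, given doxycycline at 1 µg/ml for 48 h (induced K700E) or not (uninduced K700E), and K562 with an SF3B1-WT transgene, given the same doxycycline (induced WT) or not (uninduced WT). The endogenous SF3B1 gene is present in all of them, and the sources used here do not say whether each line is a clone. RNA was total RNA depleted of ribosomal RNA, and the labels do not tie the replicates to separate cultures. P-values therefore measure the spread between the libraries, and that spread may be technical. Each SE and p-value also draws on the spread of all genes or forms tested, so it does not describe a single gene alone.

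Values are FPKM, fragments per kilobase of transcript scaled to library size, estimated for each transcript and summed per gene. SF3B1 itself had 28.98 and 39.5 FPKM in induced K700E, 34.6 and 30.4 in uninduced K700E, 36.6 and 27.3 in induced WT and 37.7 and 31.7 in uninduced WT. The summed level thus showed no difference with doxycycline beyond the spread (log2 fold change 0.06 ± 0.37 SE in the K700E line and -0.13 ± 0.37 in the WT line), and it does not separate transgene from endogenous transcripts. Erythroid markers such as GATA1 and the globin genes HBG1 and HBG2 were above 0 in all 8 libraries. CD2, MS4A1, CD14, MPO and CDH5, markers of lymphoid, monocytic, granulocytic and endothelial cells, were listed at 0 in every library. LYZ, a myeloid marker, had 7.51 and 6.53 FPKM in induced K700E and between 12.9 and 24.8 in the other 6, and its part in the results was not tested. In bulk RNA, fewer cells of a type and less RNA per cell cannot be told apart. Replicates were hardly closer to each other than libraries of different groups, with a mean correlation of log2 FPKM of 0.842 within groups and 0.839 between groups over 8785 genes.

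Initiation runs through a series of complexes. eIF1, eIF1A and the many-subunit eIF3 bind the small ribosomal subunit, and eIF2 carries the initiator tRNA to it with GTP. eIF2B reloads eIF2 with GTP, and kinases that phosphorylate eIF2 block that step under stress. eIF4E binds the mRNA cap, eIF4A unwinds the leader with eIF4B or eIF4H, and 4E-binding proteins hold eIF4E back. eIF5 and eIF5B act at the start codon and at joining of the large subunit, while eIF5A helps the ribosome through difficult peptide bonds.

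Of the 45 genes, 41 were above 0 in all 8 libraries, 1 was listed at 0 in some (EIF4E3) and 3 were listed at 0 in all (EIF4E1B, the antisense gene EIF1B-AS1 and the pseudogene EIF3IP1). All but those 3 passed the filter of a mean of 1 FPKM or more, which left 42. Mean levels were 100 FPKM or more for 14 genes, 10 to 100 for 23 and under 10 for 5. None of the 42 passed the test in the 5 comparisons, in which between 0.0% and 0.0263% of 11390 genes did. Fold changes are differences of log2(FPKM + 0.5) after the libraries were scaled, which understates changes of low genes. The median ratio of a gene's highest to its lowest library, over all 8, was 2.66.

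**Figure D1:**
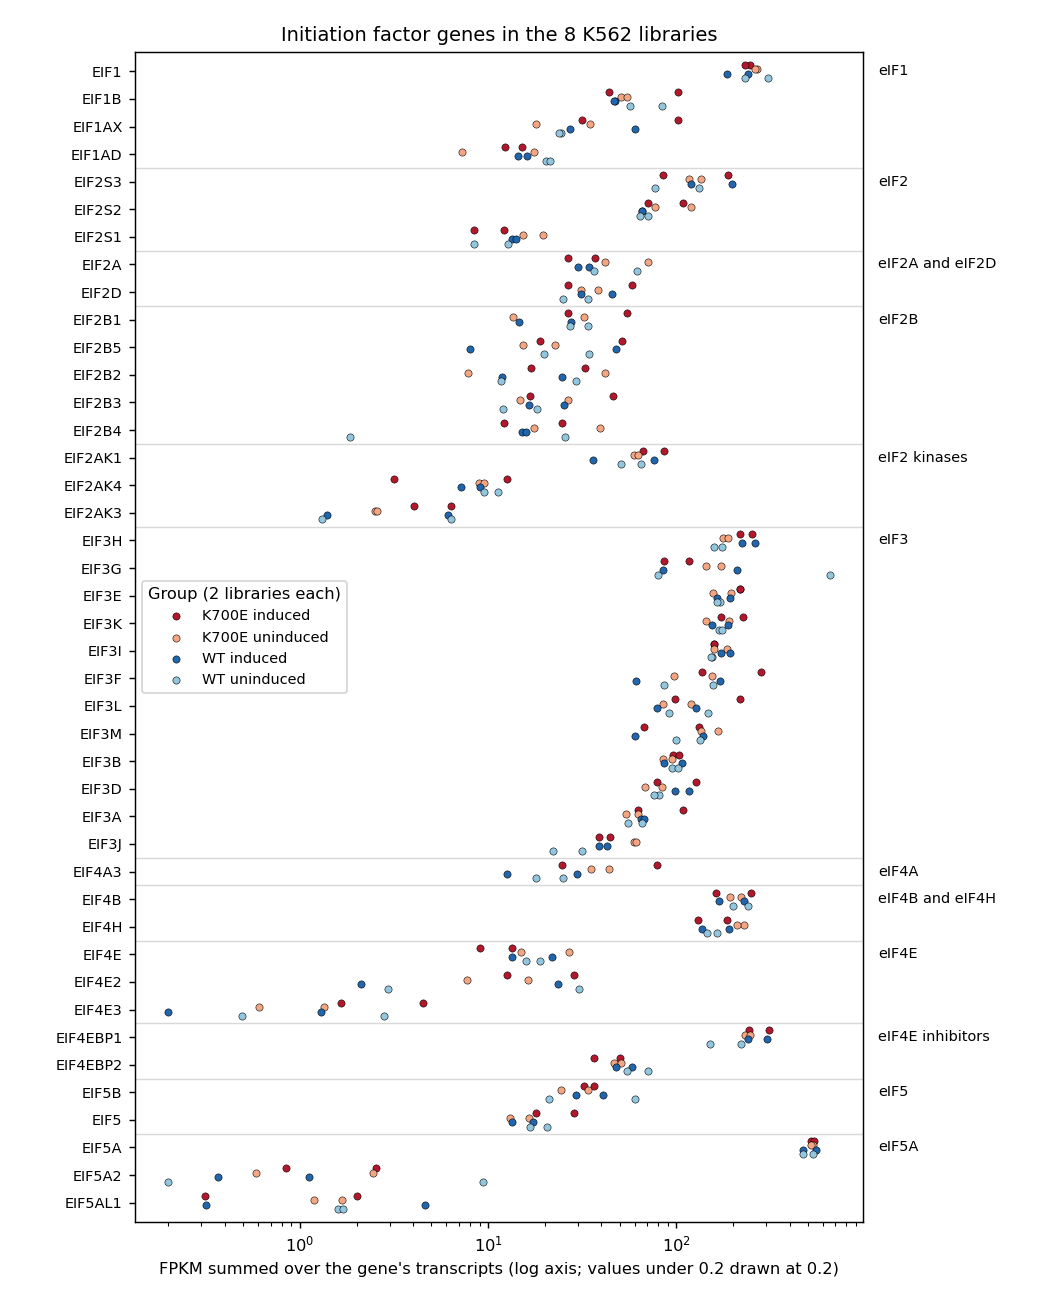
FPKM of the 42 initiation factor genes above 0, one row per gene grouped by factor, on a log axis, with 2 points for each of the 4 groups. EIF5A lies highest at 469.7 to 549 FPKM with all libraries close together, while EIF2B4, EIF4E2 and EIF5A2 are spread widely within groups.

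eIF3 is the largest factor, a scaffold of many subunits on the small ribosomal subunit, and 12 of its genes were included. Their means lay between 42.4 and 207 FPKM. EIF3H, a subunit of the non-core part, was the highest, with 253 and 219 FPKM in induced K700E, 176 and 189 in uninduced K700E, 262 and 224 in induced WT and 174 and 158 in uninduced WT. In both lines the induced libraries stood above the uninduced ones, but neither difference passed (log2 fold change 0.37 ± 0.24 SE, unadjusted p = 0.165 in the K700E line, and 0.54 ± 0.24, unadjusted p = 0.054 in the WT line, limma). EIF3E, a PCI-domain subunit, had 217 and 218 FPKM in induced K700E, 195 and 156 in uninduced K700E, 165 and 193 in induced WT and 169.8 and 164 in uninduced WT. Its induced K700E libraries lay above the other 6, but EIF3E did not pass in any comparison. How many of all genes had that order was not counted.

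EIF3J (hg19 chr15:44829266-44855001, plus strand), the loosely bound subunit that sits near the mRNA channel, had the smallest p of all initiation factor genes. It had 38.8 and 44.5 FPKM in induced K700E, 59.3 and 61.3 in uninduced K700E, 39.0 and 42.9 in induced WT and 22.2 and 31.4 in uninduced WT. The induced groups of both lines were at the same level, and the uninduced groups lay on either side of it without overlap. The uninduced lines differed by a log2 fold change of 1.17 ± 0.33 SE for K700E over WT (unadjusted p = 0.0082, adjusted p = 0.971 by limma over 11390 genes). With doxycycline the level was lower in the K700E line (-0.53 ± 0.33) and higher in the WT line (0.62 ± 0.33), and the difference between these responses was -1.15 ± 0.47 (unadjusted p = 0.041, adjusted p = 0.999, limma). EIF3J has a single spliced form in all libraries, so no assembled fragment enters its sum. The 95% intervals of the deposited values were within 6.54% of each value, narrower than the gap between the uninduced groups. The 3′ end overlaps SPG11 on the other strand by 108 bases, and the strand setting of the library is not given in the sources used here.

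EIF3I, the WD-repeat subunit of the eIF3b-g-i module, had 158 and 159 FPKM in induced K700E, 185 and 158 in uninduced K700E, 193 and 172 in induced WT and 154 and 152 in uninduced WT. The WT groups did not overlap, and the K700E groups were parted only after scaling of the libraries. Its pooled within-group SD of 0.09 on the log2 scale was the smallest of all initiation factor genes. EIF3B, the RNA-binding scaffold of that module, was nearly as even, at 95.5 and 103 FPKM in induced K700E, 94.8 and 84.8 in uninduced K700E, 107 and 85.8 in induced WT and 95 and 102 in uninduced WT. EIF3A, EIF3D, EIF3K, EIF3L and EIF3M ranged between 54.0 and 226 FPKM in single libraries, and none passed the test.

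**Figure D2:**
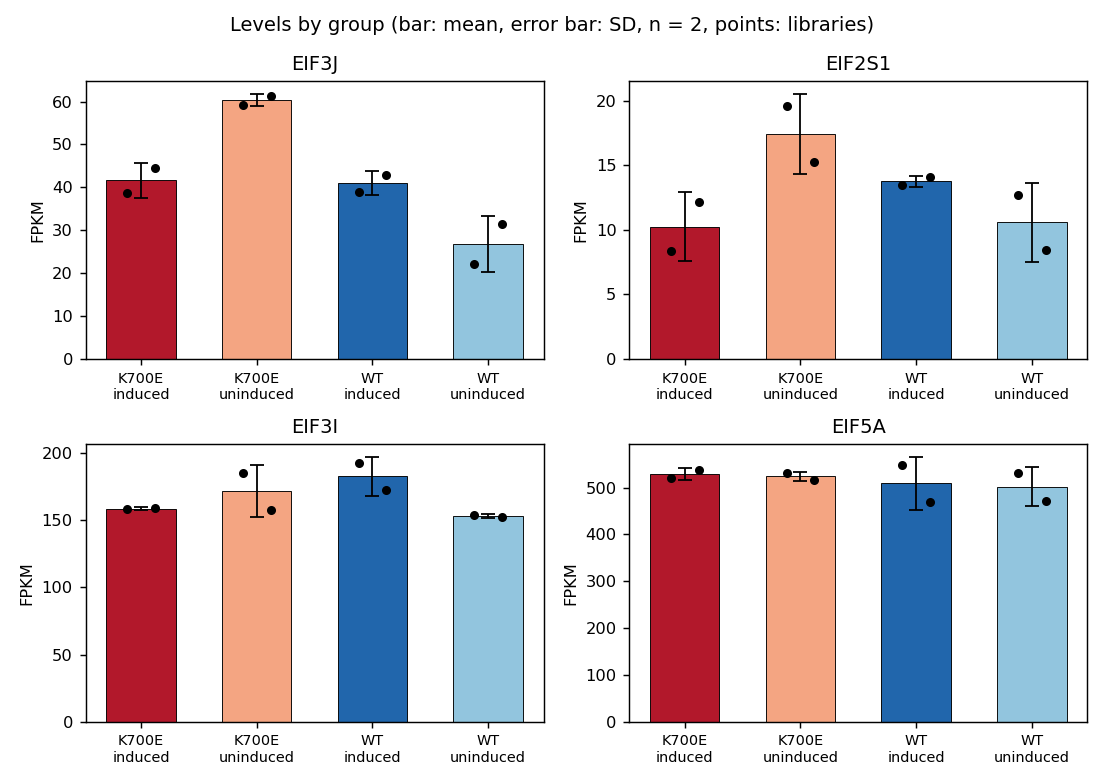
FPKM of EIF3J, EIF2S1, EIF3I and EIF5A by group, with bars for the mean, error bars for the SD (n = 2) and points for the libraries, on axes that start at 0. EIF3J and EIF2S1 are lower in induced than uninduced K700E and higher in induced than uninduced WT, while EIF5A is level across the groups.

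EIF3G and EIF3F show how a single short transcript can set a gene's sum. EIF3G, a subunit with an RNA recognition motif whose gene overlaps P2RY11 on the other strand by 375 bases, had 117 and 86.4 FPKM in induced K700E, 172 and 145 in uninduced K700E, 211 and 85.1 in induced WT and 656 and 79.6 in uninduced WT. The 656 stands far above the rest, and 486 FPKM of it came from a 310-nt transcript assembled in that library alone. EIF3F, an MPN-domain subunit, had 281 FPKM in induced K700E replicate 2, of which 208 came from a 449-nt assembled transcript. Its other 7 libraries lay between 61.4 and 169.8 FPKM.

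**Figure D3:**
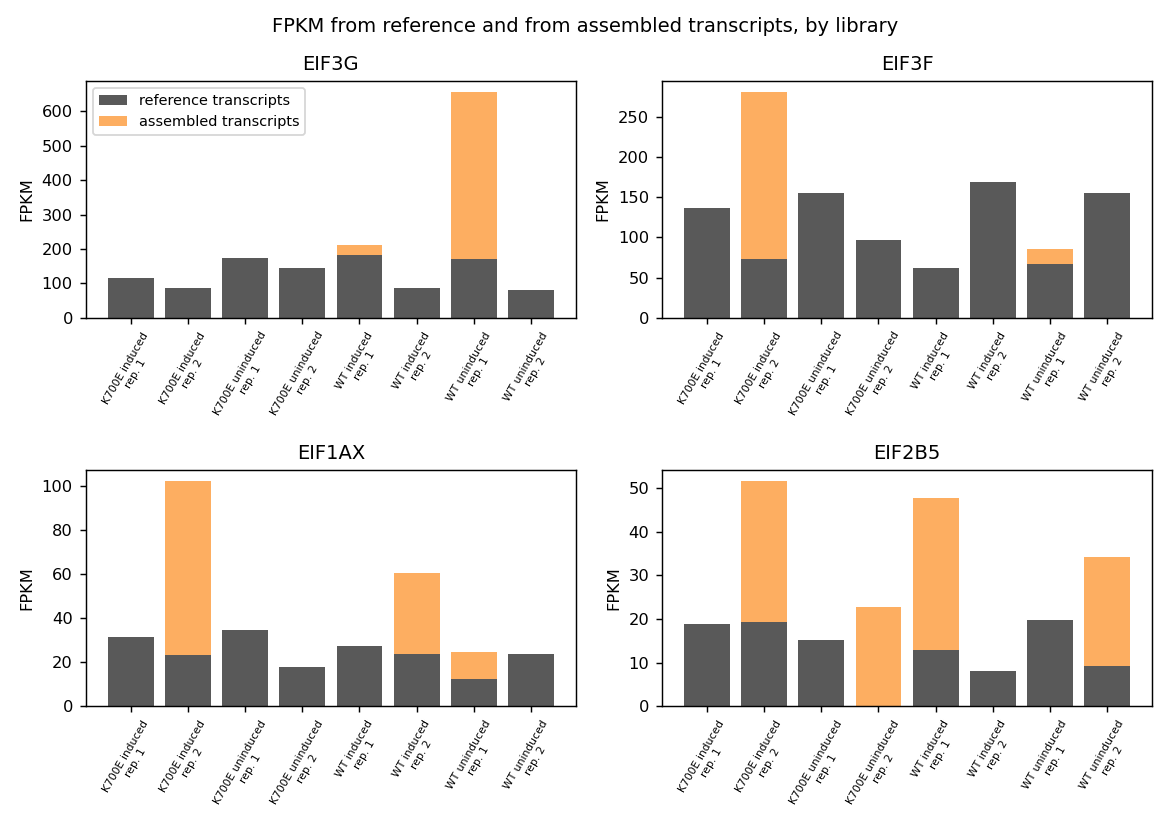
FPKM of EIF3G, EIF3F, EIF1AX and EIF2B5 in each of the 8 libraries, stacked by reference transcripts and transcripts assembled in that library. The highest bars of EIF3G (656 FPKM in uninduced WT replicate 1), EIF3F (281) and EIF1AX (102, both in induced K700E replicate 2) are mostly assembled transcripts.

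The eIF1 group guards start codon choice. EIF1, which keeps the scanning ribosome open, averaged 239 ± 10.3 FPKM in induced K700E, 265 ± 4.72 in uninduced K700E, 212 ± 37.4 in induced WT and 269 ± 53.4 in uninduced WT (SD, n = 2 each). EIF1B, its close paralog, had 44.0 and 102 FPKM in induced K700E, 51.0 and 54.5 in uninduced K700E, 47.5 and 46.4 in induced WT and 83.8 and 57.1 in uninduced WT, and reads shared by the pair could have been split between them. Induced libraries lay below uninduced ones without overlap for EIF1 in the K700E line and for EIF1B in the WT line, and neither difference passed the test.

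EIF1AX encodes eIF1A, which binds the A site of the small subunit. It had 31.4 and 102 FPKM in induced K700E, 34.8 and 18.0 in uninduced K700E, 27.3 and 60.6 in induced WT and 24.4 and 23.7 in uninduced WT. The induced and uninduced K700E libraries overlap, and 78.8 of the 102 FPKM came from a 699-nt assembled transcript. EIF1AX had the second largest fold change of the K700E induction (log2 1.17 ± 0.63 SE, unadjusted p = 0.10, adjusted p = 1, limma). With reference transcripts alone the value was 0.12, and it was 0.33 without induced K700E replicate 2. EIF1AD, an eIF1A-domain protein, had 12.3 and 15.2 FPKM in induced K700E, 17.5 and 7.31 in uninduced K700E, 16.1 and 14.5 in induced WT and 20.3 and 21.4 in uninduced WT.

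eIF2 is made of an alpha, a beta and a gamma subunit. EIF2S3, the gamma subunit that binds the tRNA, had 188 and 85.3 FPKM in induced K700E, 135 and 116 in uninduced K700E, 119 and 198 in induced WT and 77.0 and 133 in uninduced WT. Assembled transcripts held 78.7 of the 188 FPKM and 84.2 of the 198. EIF2S2, the beta subunit, had 109 and 70.9 FPKM in induced K700E, 119 and 76.8 in uninduced K700E, 65.6 and 65.3 in induced WT and 70.7 and 64.1 in uninduced WT. In these deposited values its 4 K700E libraries all lay above its 4 WT libraries, by a margin of 70.9 against 70.7 FPKM. Among the 42 genes EIF2S2 alone had that order, against 1.85% of all genes tested, and none had the reverse order, against 1.82%. After scaling its lines overlapped, at 70.699 FPKM in induced K700E replicate 2 against 71.5 in uninduced WT replicate 1, and none of the 42 had either order, against 1.8% and 1.89% of all genes. The reference form of EIF2S2 held 50.5 of the 119 FPKM in uninduced K700E replicate 1, which is below all 4 WT libraries.

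EIF2S1 (hg19 chr14:67827034-67853233, plus strand), the alpha subunit that the stress kinases phosphorylate, was the lowest of the eIF2 subunits at 8.38 and 12.1 FPKM in induced K700E, 19.6 and 15.2 in uninduced K700E, 13.4 and 14.1 in induced WT and 12.7 and 8.41 in uninduced WT. Neither pair of groups overlapped, with induced below uninduced in the K700E line and above it in the WT line. The log2 fold change was -0.74 ± 0.50 SE in the K700E line and 0.39 ± 0.50 in the WT line, and their difference of -1.13 ± 0.70 did not pass (unadjusted p = 0.15, adjusted p = 0.999, limma). EIF2A and EIF2D, which can deliver initiator tRNA without eIF2, averaged 42.3 and 36.2 FPKM. EIF2A had 37.2 and 26.4 FPKM in induced K700E, 70.4 and 41.7 in uninduced K700E, 29.9 and 34.2 in induced WT and 61.8 and 36.6 in uninduced WT, so induced libraries were below uninduced ones in both lines (log2 -0.78 ± 0.42 and -0.57 ± 0.42, limma adjusted p of 1 and 0.998). Assembled transcripts made up to 89.1% of the EIF2A sum in 5 libraries, and with reference transcripts alone the fold changes were 0.70 in the K700E line and 0.32 in the WT line.

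The 5 subunits of eIF2B averaged between 19.0 and 28.8 FPKM. Single libraries scattered far more. EIF2B1, the alpha subunit and the highest, had 54.8 and 26.6 FPKM in induced K700E, 32.4 and 13.6 in uninduced K700E, 27.7 and 14.5 in induced WT and 34.1 and 27.1 in uninduced WT. EIF2B4, the delta subunit, had 24.8 and 12.2 FPKM in induced K700E, 39.2 and 17.6 in uninduced K700E, 15.1 and 15.8 in induced WT and 1.84 and 25.8 in uninduced WT. The lone 1.84 in uninduced WT replicate 1 sets its place among the largest differences, which were 1.76 ± 1.03 on the log2 scale between the uninduced lines and 1.022 ± 1.03 on WT induction. Without that library they were 0.03 and -0.71. EIF2B2, EIF2B3 and EIF2B5, the beta, gamma and catalytic epsilon subunits, lay between 7.86 and 51.6 FPKM, and 5 of the 8 EIF2B4 sums consisted wholly of assembled transcripts.

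The kinases that phosphorylate eIF2 differed in level. EIF2AK1, the haem-regulated kinase HRI of erythroid cells, was the highest at 66.3 and 85.7 FPKM in induced K700E, 59.3 and 62.8 in uninduced K700E, 36.2 and 76.2 in induced WT and 50.8 and 64.8 in uninduced WT. EIF2AK4, the amino acid sensor GCN2, averaged 8.89 FPKM. EIF2AK3, the endoplasmic reticulum kinase PERK, had 4.04 and 6.38 FPKM in induced K700E, 2.52 and 2.58 in uninduced K700E, 1.39 and 6.12 in induced WT and 6.34 and 1.32 in uninduced WT. Its K700E groups did not overlap, yet the difference was smaller than its error (log2 0.88 ± 0.99 SE, limma adjusted p = 1). EIF2AK1 overlaps AIMP2 by 1588 bases and ANKRD61 by 5177 bases, both on the other strand.

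Among the cap-binding genes, EIF4E averaged 16.8 FPKM, with 13.4 and 9.09 in induced K700E, 27.0 and 15.0 in uninduced K700E, 13.5 and 21.8 in induced WT and 18.8 and 15.8 in uninduced WT. Induced K700E lay below uninduced K700E and below induced WT without overlap. The log2 fold changes of -0.83 ± 0.51 and -0.62 ± 0.51 did not pass (limma adjusted p of 1 and 0.951). Induced K700E and induced WT were parted by 13.42 against 13.46 FPKM. Of the 27.0 FPKM in uninduced K700E replicate 1, 17.7 came from a transcript assembled in that library alone. Reference transcripts held 9.30 FPKM there, so on them the K700E groups overlapped. EIF4E2, a cap-binding homolog tied to repression, had 28.6 and 12.6 FPKM in induced K700E, 7.77 and 16.4 in uninduced K700E, 23.5 and 2.10 in induced WT and 30.5 and 2.93 in uninduced WT. In each WT group replicate 1 lay far above replicate 2. EIF4E3, a low and divergent homolog, had 4.51 and 1.65 FPKM in induced K700E, 0.610 and 1.34 in uninduced K700E, 1.30 in induced WT replicate 1, 0 in replicate 2, and 2.78 and 0.495 in uninduced WT.

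EIF4E3 had the largest fold change in 2 of the comparisons between groups, 1.197 ± 1.19 on K700E induction and 1.79 ± 1.19 for induced K700E over induced WT, and the largest interaction, 2.13 ± 1.68. The difference between the induced lines was 0.85 without induced WT replicate 2. None exceeded its error by enough to pass (adjusted p of 1, 0.951 and 0.999). Transcripts of the 4E-binding proteins EIF4EBP1 and EIF4EBP2 were at higher FPKM, a level per length, than EIF4E. EIF4EBP3, one of the further initiation factor genes, was listed at 0 in all 8 libraries. EIF4EBP1, which mTOR phosphorylates, had 242 and 309.8 FPKM in induced K700E, 232 and 245 in uninduced K700E, 241 and 303 in induced WT and 221 and 151 in uninduced WT, so that uninduced WT was the lowest group. EIF4EBP2 averaged 51.9 FPKM and lay between 36.4 and 70.3.

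EIF4B and EIF4H, the RNA-binding partners of the helicase eIF4A, averaged 208 and 174 FPKM. EIF4B had 248 and 163 FPKM in induced K700E, 222 and 193 in uninduced K700E, 169 and 227 in induced WT and 200.3 and 241 in uninduced WT, with every pair of groups overlapping. EIF4A3, the eIF4A homolog of the exon junction complex, had 24.8 and 78.9 FPKM in induced K700E, 44.1 and 35.3 in uninduced K700E, 29.6 and 12.6 in induced WT and 18.0 and 25.1 in uninduced WT. Its log2 fold changes for the K700E over the WT line were 1.17 ± 0.63 SE when induced and 0.87 ± 0.63 when uninduced (limma adjusted p = 0.951 and 0.971). The first one was -2.51 when reference transcripts alone were summed, and 0.35 without induced K700E replicate 2. In that library all 78.9 FPKM came from assembled transcripts and the reference form was listed at 0, so the -2.51 rests on that 0.

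EIF5A was the most abundant and among the steadiest genes. It had 521 and 538 FPKM in induced K700E, 531 and 517 in uninduced K700E, 549 and 469.7 in induced WT and 531 and 472 in uninduced WT, and the log2 fold changes on induction were 0.02 ± 0.21 SE in each line. Its homolog EIF5A2 had 0.848 and 2.54 FPKM in induced K700E, 2.45 and 0.588 in uninduced K700E, 0.367 and 1.12 in induced WT and 9.40 and 0.00821 in uninduced WT. The 9.40 included 8.09 FPKM from a 439-nt assembled transcript, and the fold change on WT induction was -0.93 ± 1.502. EIF5AL1, a near-identical intronless copy of EIF5A, averaged 1.68 FPKM, and reads of EIF5A could have been counted there. EIF5, which triggers GTP hydrolysis on eIF2, had 28.7 and 17.9 FPKM in induced K700E, 16.4 and 13.1 in uninduced K700E, 13.4 and 17.2 in induced WT and 16.8 and 20.5 in uninduced WT. EIF5B, the subunit-joining GTPase, had 32.2 and 36.6 FPKM in induced K700E, 33.9 and 24.3 in uninduced K700E, 40.6 and 29.2 in induced WT and 60.1 and 20.9 in uninduced WT.

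Induction of K700E gave 0 called genes out of 42, with an adjusted p under 0.05 in limma for 0.00878% of the 11390 genes tested (1 gene). At an unadjusted p under 0.05 there were 0 initiation factor genes, against 4.69% of all genes. The fold change was above 0 for 27 and below 0 for 15, with a median of 0.19, while 48.4% of all genes were above 0 with a median of -0.01. Induced libraries lay wholly above uninduced ones for 8 initiation factor genes, against 16.0% of all genes, and wholly below for 8, against 17.8%. By factor, 8 of 12 eIF3 genes and 4 of 5 eIF2B genes were above 0, and both EIF4B and EIF4H were below 0. On reference transcripts alone, EIF2B1, EIF3A and EIF3F averaged lower in induced than in uninduced K700E, and EIF3I and EIF4B averaged higher. The median was 0.06 without induced K700E replicate 2, 0.05 without uninduced K700E replicate 2, each with 23 above 0, and 0.08 with reference transcripts alone, with 24 above 0.

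Induction of WT SF3B1 also gave 0 called, with 0.00878% of all genes called, and 0 at an unadjusted p under 0.05, against 4.28%. There were 15 above 0 and 27 below, with a median of -0.06, against 50.3% of all genes above 0 and a median of 0.01. Induced lay above uninduced without overlap for 7 genes, against 15.1%, and below for 4, against 14.0%. That direction turned without induced WT replicate 1, with 24 above 0 and a median of 0.12, and with reference transcripts alone, with 24 above 0 and a median of 0.03. Without uninduced WT replicate 1 the split was 21 to 21. The eIF3 genes split 6 to 6, and the eIF4E genes EIF4E, EIF4E2 and EIF4E3 were below 0.

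Induced K700E against induced WT gave 0 called, against 0.0263% of all genes, and 0 at an unadjusted p under 0.05, against 5.24%. Of the 42, 28 were above 0 with a median of 0.11, against 49.5% and a median of 0 over all genes. With reference transcripts alone 22 were above 0 with a median of 0.01, and with upper-quartile scaling 23 with a median of 0.06. Without induced K700E replicate 2 there were 23, and without induced WT replicate 1 there were 24 with a median of 0.07. All 5 eIF2B subunits were among the 28. On reference transcripts alone, EIF2B1, EIF2B3 and EIF2B4 averaged lower in induced K700E than in induced WT, and EIF2B2 and EIF2B5 higher. Groups did not overlap for 4 genes with K700E above, against 16.3%, and for 3 with K700E below, against 16.6%. Between the uninduced lines 0 were called, against 0.0% of all genes, and 1 had an unadjusted p under 0.05 (EIF3J), against 4.64%. The 42 split 21 to 21 with a median of 0.01, against 51.4% of all genes above 0, and 7 genes lay above, against 16.9%, and 5 below without overlap, against 15.7%. The split was 17 above to 25 below without uninduced K700E replicate 1 and 26 to 16 without uninduced WT replicate 1, with medians of -0.15 and 0.12.

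For the difference between the responses of the lines, K700E minus WT, 0 were called, against 0.0176% of all genes, and 1 had an unadjusted p under 0.05 (EIF3J), against 4.24%. There were 26 above 0 and 16 below with a median of 0.16, against 48.0% of all genes above 0 and a median of -0.05. With reference transcripts alone the split was 20 above to 22 below with a median of -0.02, and without uninduced WT replicate 1 it was 18 to 24 with a median of -0.10. After scaling, induced libraries lay wholly below uninduced ones in the K700E line and wholly above them in the WT line for 3 genes. These were EIF3J, EIF2S1 and EIF3I, against 2.51% of all genes, and 0 had the opposite pattern, against 2.14%. The K700E order of EIF3I rested on an assembled transcript in uninduced K700E replicate 1. The comparisons share libraries, so these counts are not independent of each other. EIF2B1 had an interaction of 1.44 ± 0.81 and EIF2B4 one of -1.60 ± 1.46 (adjusted p of 0.999 each). The first was -0.62 with reference transcripts alone, and the second was 0.13 without uninduced WT replicate 1.

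**Figure D4:**
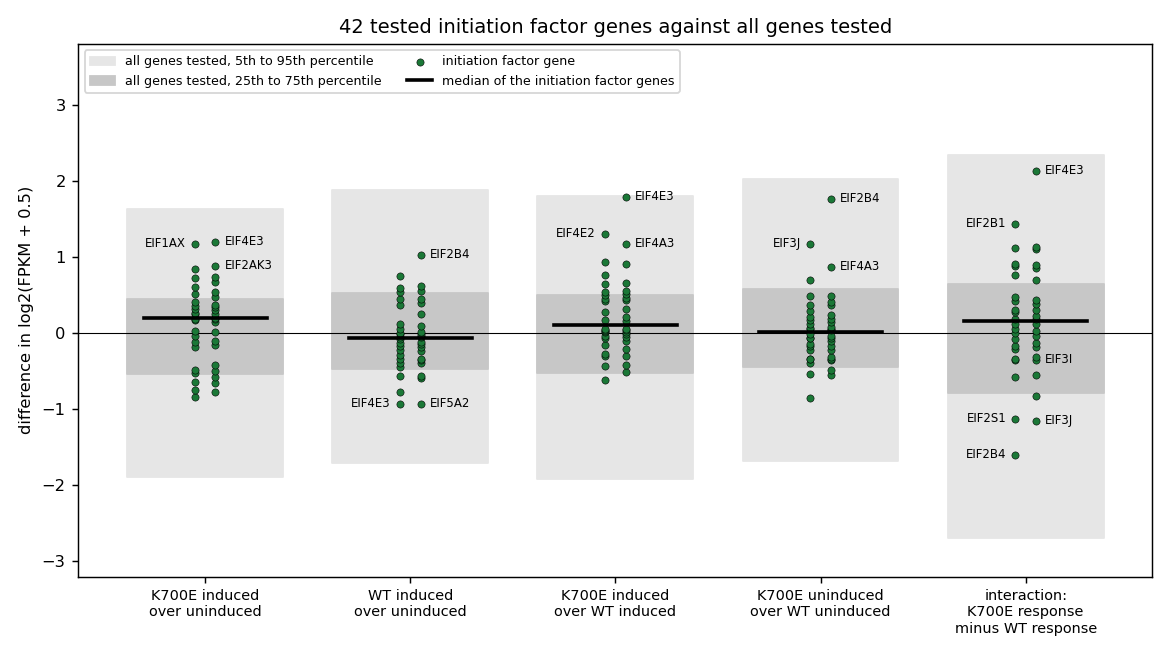
Differences in log2(FPKM + 0.5) of the 42 tested initiation factor genes in the 5 comparisons, with bars for their median and grey bands for the 5th to 95th and 25th to 75th percentiles of all 11390 genes tested. The initiation factor genes lie within the outer band in each comparison, and the medians run between -0.06 and 0.19.

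The pooled within-group SD on the log2 scale had a median of 0.41 over the 37 initiation factor genes with means of 10 to 1000 FPKM, against 0.53 over all 6138 genes in that range. The steadiest were EIF3I, EIF5A at 0.11, EIF3E at 0.12 and EIF3B at 0.13. The least steady were EIF4E2 at 1.70, EIF5A2 at 1.68, EIF2B4 at 1.33 and EIF3G at 1.19.

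SF3B1 mutants are known for using cryptic 3′ splice sites a short way upstream of the usual one, so the forms of the initiation factor genes were compared as shares of the gene's FPKM. Over the 42 genes, 111 forms were above 0 in some library, of which 55 were assembled, and 45 of those 55 were present in a single library. Tests covered 72 forms of 27 genes. None passed in any comparison, nor did any of the 24510 forms tested over all genes (0.0% called in each). At an unadjusted p under 0.05 there were 3, 1, 2, 2 and 2 forms in the K700E induction, the WT induction, the induced lines, the uninduced lines and the interaction, against 3.7%, 3.95%, 4.01%, 3.81% and 3.73% of all forms.

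EIF4H gave the clearest pair of forms, since both were above 0 in all 8 libraries and no assembled transcript was added. They differ by a coding exon of 60 bases, exon 5 of 7, at GRCh38 chr7:74190247-74190306 on the plus strand. The GENCODE v29 sequence of each junction, with the exon in capitals, shows what is included or skipped:
EIF4H with the exon: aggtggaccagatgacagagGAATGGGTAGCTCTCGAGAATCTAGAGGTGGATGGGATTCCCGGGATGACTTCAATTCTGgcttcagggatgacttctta
EIF4H without the exon: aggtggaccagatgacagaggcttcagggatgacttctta
The length is a multiple of 3, so the reading frame is kept. The form with the exon made up 12.1% and 22.3% of EIF4H in induced K700E, 26.1% and 16.2% in uninduced K700E, 32.1% and 36.0% in induced WT and 17.2% and 23.9% in uninduced WT. Induced WT lay above the other 6 libraries, and the K700E groups overlapped. The group means were 17.2% ± 7.23, 21.1% ± 6.99, 34.1% ± 2.70 and 20.6% ± 4.73 in that order (SD, n = 2). On the log2 ratio scale, induced WT differed from uninduced WT by 1.00 ± 2.05 SE and induced K700E from induced WT by -1.35 ± 2.05 (limma adjusted p of 1 and 0.965). These SEs are moderated by limma toward a trend over all forms tested and do not describe the spread of EIF4H alone.

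**Figure D5:**
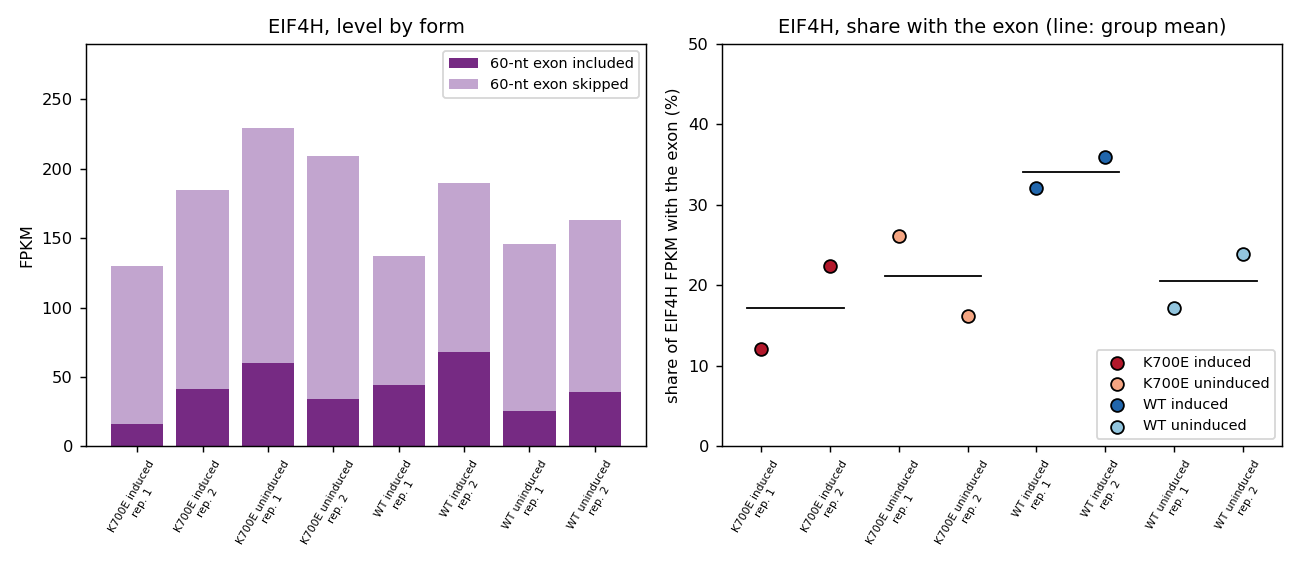
Left, FPKM of EIF4H in each library, stacked by the form with and the form without the 60-base exon, and right, the share of the form with the exon in percent, with a line at each group mean. Both forms are present in every library, and the 2 induced WT libraries have the highest shares, 32.1% and 36.0%.

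EIF1AD, EIF2AK1 and EIF2B4 hold a pair of annotated 3′ splice sites a few bases apart, and in EIF2AK1 and EIF2B4 they lie 3 bases apart in the coding sequence. The junctions are shown because the upstream site of each pair adds 3 bases to the mRNA, in capitals:
EIF2AK1 upstream site: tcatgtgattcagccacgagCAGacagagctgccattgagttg
EIF2AK1 downstream site: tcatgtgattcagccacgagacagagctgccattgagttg
EIF2B4 upstream site: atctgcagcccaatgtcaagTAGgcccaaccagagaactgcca
EIF2B4 downstream site: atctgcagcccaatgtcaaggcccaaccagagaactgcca
In GRCh38 the triplets are at chr7:6042991-6042993 (exon 8 of 15 of EIF2AK1) and chr2:27369210-27369212 (exon 4 of 13 of EIF2B4), both on the minus strand. The upstream site of EIF2AK1 (hg19 intron chr7:6082625-6084192) took 0% and 100% of the pair's FPKM in induced K700E, 100% and 100% in uninduced K700E, 100% and 100% in induced WT and 55.7% and 48.0% in uninduced WT. The replicates of induced K700E were thus at opposite ends. For EIF2B4 the upstream share was 100% and 100% in induced K700E, 28.9% and 0% in uninduced K700E, 100% and 0% in induced WT and 0% and 100% in uninduced WT. Both WT groups had replicates at opposite ends. These shares come from FPKM estimates for whole transcripts, and read counts over each junction are not used here. The EIF1AD pair is 5 bases apart and could be read in just 2 libraries.

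Introns that no reference transcript of the gene holds numbered 22, in 16 of the genes. Of these 17 occurred in a single library and 5 in a pair of libraries. 7 were in an induced K700E library, and none was in both of them. By type, 7 joined a known donor to another acceptor, 5 a known acceptor to another donor, 8 joined known sites in a new combination and 2 had neither end in the reference. The single acceptor 10 to 30 bases upstream of a reference one was in EIF2AK3, 16 bases upstream, at hg19 intron chr2:88895198-88913241, and it was seen at 1.39 FPKM in induced WT replicate 1. EIF5B had an acceptor 3 bases downstream of the reference one, in induced K700E replicate 2 at 24.2 FPKM and in induced WT replicate 1 at 40.6 FPKM.

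The leading form differed between libraries for 22 of the 42 genes, and in 17 it was an assembled transcript in at least 1 library. The forms with the smallest p-values show how these shares behave. The reference form of EIF3M, a PCI-domain subunit, made up 100% in both induced K700E libraries, 66.1% and 73.7% in uninduced K700E and 100% in all 4 WT libraries, and the remainder in uninduced K700E was a different assembled fragment in each replicate. The log2 ratio to the rest of the gene differed by 6.35 ± 2.23 SE on K700E induction (unadjusted p = 0.017, limma adjusted p = 0.901). For EIF2A the reference form was at 100% in both induced K700E libraries and at 23.6% and 53.2% in uninduced K700E, against 22.7% and 100% in induced WT and 10.9% and 62.6% in uninduced WT. For EIF2B1 it was at 25.3% and 56.9% in induced K700E and 100% in both uninduced K700E libraries, against 100% in both induced WT libraries and 39.3% and 100% in uninduced WT. For EIF2D the longer reference form was at 100% in 6 libraries and at 80.8% and 32.1% in induced WT (log2 ratio -5.40 ± 2.32 on WT induction, unadjusted p = 0.042, limma adjusted p = 0.876).

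EIF1AD is annotated with several transcripts over the same span, and 5 of them each took all or most of the gene in some library. The form NM_001242486 held 100% in both induced K700E libraries, 44.0% and 100% in uninduced K700E, 0% and 100% in induced WT and 0% in both uninduced WT libraries. EIF5A uses 3 annotated first exons. NM_001970 took 77.1% and 64.7% in induced K700E, 43.5% and 44.1% in uninduced K700E, 74.2% and 37.5% in induced WT and 58.8% and 0% in uninduced WT, while the sum over the forms hardly moved. NM_001143761 was at 0% in both induced K700E libraries, 56.5% and 0% in uninduced K700E, 11.6% and 12.4% in induced WT and 0% and 18.2% in uninduced WT (log2 ratio -7.18 ± 3.59 for induced K700E over induced WT, unadjusted p = 0.073, limma adjusted p = 0.869). EIF3B is divided mainly between 2 annotated forms, and NM_003751 had 78.6% and 44.5% in induced K700E, 46.4% and 32.9% in uninduced K700E, 29.6% and 31.0% in induced WT and 74.8% and 47.1% in uninduced WT.

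The 11 further initiation factor genes were named by accession, and 9 of them passed the filter. EIF2AK2, the double-stranded RNA kinase PKR, had 2.41 and 10.4 FPKM in induced K700E, 9.04 and 5.28 in uninduced K700E, 8.52 and 10.3 in induced WT and 5.93 and 8.57 in uninduced WT, with a log2 fold change of 0.37 ± 0.77 SE on WT induction (limma adjusted p = 1). EIF4A1, the main eIF4A helicase, had 222 and 232 FPKM in induced K700E, 244 and 295 in uninduced K700E, 276 and 212 in induced WT and 284 and 183 in uninduced WT. EIF4G2, an eIF4G homolog that lacks the eIF4E-binding part, had 168 and 147 FPKM in induced K700E, 131 and 153 in uninduced K700E, 129.99 and 111 in induced WT and 111 and 90.8 in uninduced WT. Its 4 K700E libraries were all above its 4 WT libraries in the deposited values, as in 1.85% of all genes tested. This was not so after scaling, where 127.5 in uninduced K700E replicate 1 lay under 131.1 in induced WT replicate 1. The log2 fold changes were 0.38 ± 0.27 SE when induced and 0.49 ± 0.27 when uninduced and did not pass (limma adjusted p = 0.951 and 0.971). EIF4G1, the scaffold of the cap complex, averaged 115 FPKM and EIF6, which keeps the ribosomal subunits apart, 84.5 FPKM.

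EIF3C, a core eIF3 subunit, went the other way. It had 124 and 154 FPKM in induced K700E and 179 and 162 in uninduced K700E. In the WT line it had 211 and 211 FPKM when induced and 213 and 254 when uninduced. Its 4 K700E libraries lay below its 4 WT libraries, before and after scaling, an order of 1.82% and 1.89% of all genes tested. The log2 fold change was -0.61 ± 0.24 SE for the induced lines (unadjusted p = 0.035, adjusted p = 0.923, limma) and -0.46 ± 0.24 for the uninduced lines (adjusted p = 0.971). Its accession is placed at 2 near-identical loci, hg19 chr16:28390903-28415165 on the minus strand and chr16:28722782-28747050 on the plus strand, which had 60.3 and 64.1 FPKM in induced K700E replicate 1 and similar pairs elsewhere. EIF3CL, the annotated copy, was listed at 0, so the sum cannot be divided between the copies. These genes were singled out after their values were seen.

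A list of 38 genes around initiation (among them poly(A)-binding proteins, eIF4E kinases, mTOR components, eIF2 phosphatase subunits and mitochondrial factors) gave 0 called out of 37 tested in each of the 5 comparisons, where 0.00878%, 0.00878%, 0.0263%, 0.0% and 0.0176% of all genes were called. Unadjusted p-values under 0.05 numbered 3, 2, 1, 0 and 1 in that order, against 4.69%, 4.28%, 5.24%, 4.64% and 4.24% of all genes. The medians lay between -0.05 and 0.01. MTIF3, the mitochondrial initiation factor 3, had 15.97 and 17.6 FPKM in induced K700E and 11.97 and 69.99 in induced WT, and it was listed at 0 in all 4 uninduced libraries (unadjusted p = 0.00079 for K700E induction and 0.00031 for WT induction, limma adjusted p = 0.907 and 0.690). Assembled transcripts entered the MTIF3 sum in 2 libraries, at up to 100% of it. Under the alternatives that kept all libraries, its log2 fold change on WT induction, 5.89, lay between 2.46 and 8.19. The K700E value, 5.11, lay between 4.15 and 7.39. MTIF3 overlaps GTF3A on the other strand by 71 bases, and a value listed at 0 can be a failed estimate.

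PAIP2, an inhibitor of poly(A)-binding protein, had 13.2 and 31.5 FPKM in induced K700E, 54.4 and 76.3 in uninduced K700E, 34.7 and 59.6 in induced WT and 42.5 and 17.0 in uninduced WT, with an interaction of -2.37 ± 0.84 SE (unadjusted p = 0.023, limma adjusted p = 0.999). PPP1R15A, the stress-induced subunit of the eIF2 phosphatase, had 111 and 114 FPKM in induced K700E, 113 and 96.5 in uninduced K700E, 78.0 and 58.3 in induced WT and 127 and 92.2 in uninduced WT. Induced WT was its lowest group (log2 0.73 ± 0.30 for induced K700E over induced WT, unadjusted p = 0.041, limma adjusted p = 0.947). CTIF, a factor of nuclear cap-bound translation, had a log2 fold change of 2.02 ± 0.85 on K700E induction, and DHPS, which starts the hypusine modification of eIF5A, one of -1.23 ± 0.49 on WT induction. Neither passed (limma adjusted p = 1 and 0.998). BZW2 and CYFIP1 were next between the induced lines, at -0.66 ± 0.32 and -0.99 ± 0.51 (limma adjusted p = 0.951 each), and MCTS1 next for the interaction, at 2.19 ± 1.196 (limma adjusted p = 0.999). The MCTS1 value was 0.80 with reference transcripts alone and 1.28 without induced K700E replicate 1, in which 88.9% of its sum was assembled. The DHPS value was -0.68 without induced WT replicate 2. DDIT3, the stress transcription factor CHOP, had 55.5 FPKM in uninduced WT replicate 1 and 0 everywhere else.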

How the data were processed

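RNA-seq of 8 libraries was used. The deposited values are FPKM with a 95% interval and coverage for each transcript, as the authors' software wrote them. The submitters' processing notes name Cufflinks, TopHat, CASAVA and the build hg19. The sources used here give neither tool versions nor the strand setting. Read counts were not used here, so depth is described by coverage per FPKM, a median of 3.28 to 4.78 per library, and intervals of 6.16% to 6.94% of the value, which cover counting error only.

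Reference transcripts and spliced assembled transcripts of at least 300 nt were summed per gene, divided by a median-ratio factor per library, and log2(FPKM + 0.5) was fitted in limma 3.58.1 (R 4.3.3) with a trend over all 8 libraries. Genes with a mean of 1 FPKM or more were tested, with Benjamini-Hochberg adjustment over all 11390 in each comparison and a threshold of 0.05. Forms with a mean share of 5% to 95% were tested as log2 ratios to the rest of the gene. The code was tested on simulated data. Sequences come from GENCODE v29 (GRCh38), and gene positions from the files (hg19).

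Named genes were the 3 largest fold changes in each comparison, the highest of each factor and those at 0 in some library, with others named for their role. For forms and for the list around initiation, the 3 smallest p-values in each comparison were followed. The members and lists were chosen with earlier results of these data known. Another pseudocount, filter, scaling, transcript set, spread estimate, a replicate block and leaving out each library were tried.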

Additional observations from a re-analysis of the deposited data

Results flagged for a closer look

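In EIF3J, EIF2S1 and EIF3I, out of 42 initiation factor genes tested, both induced K700E libraries lay below both uninduced K700E libraries while both induced WT libraries lay above both uninduced WT libraries, after scaling. This pattern was present in 2.51% of all 11390 genes tested, and the opposite one in 2.14% of them and in 0 of the 42. The difference between the responses, K700E minus WT on the log2 scale, was -1.15 ± 0.47 (SE) for EIF3J, -1.13 ± 0.70 for EIF2S1 and -0.35 ± 0.33 for EIF3I. None passed the test (limma adjusted p = 0.999 each), and the unadjusted p was 0.041, 0.146 and 0.315 in that order.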

How the results depend on the processing

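The count of initiation factor genes or forms called was 0 in each comparison under all 155 alternative values of that count, and the lowest adjusted p of any of them was 0.401 for genes and 0.334 for forms. Over all genes, calls in the K700E induction, the WT induction, the induced lines, the uninduced lines and the interaction numbered 1, 1, 3, 0 and 2, against 28, 13, 14, 23 and 11 without the filter on low values and 2, 9, 5, 4 and 2 with reference transcripts alone. Leaving out single libraries gave 1 to 7, 0 to 8, 3 to 11, 0 to 6 and 0 to 3.

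Of 894 alternative values, 9 reversed, all of fold changes that had not passed. With reference transcripts alone, EIF5A2 on WT induction was 0.31, EIF4A3 between the induced lines was -2.51 and the EIF2B1 interaction was -0.62. The reference form of EIF4A3 was listed at 0 in induced K700E replicate 2. With sums weighted by transcript length, an alternative chosen after seeing the data, EIF5A2 on WT induction was 0.085. Leaving out single libraries moved WT induction between -0.71 and 2.75 for EIF2B4, -1.86 and 0.0015 for EIF4E3, and -3.08 and 1.23 for EIF5A2. EIF4E2 for induced K700E over induced WT then lay between -0.32 and 2.91 and the EIF2B4 interaction between -3.33 and 0.13. The reversals came without uninduced WT replicate 1 for EIF2B4 and EIF5A2 and without induced WT replicate 2 for EIF4E3 and EIF4E2. Beyond the libraries and transcripts left out, the cause was not tested.

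Over all genes tested, deviations of same-numbered libraries from their group means correlated between -0.031 and 0.083. The labels do not say whether same-numbered libraries were paired, and such a correlation cannot settle it for single genes. HBG1 and HBG2 were higher in replicate 2 in every group, and HBE1 and HBZ only in the K700E groups. With the replicate block, all-gene calls were 1, 1, 2, 0 and 2, and 0 initiation factor genes were called.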
